A study of Homo sapiens with 6 samples.

Results

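Keratins are the intermediate filament proteins of epithelial cells. Gene expression of the keratin family was measured in IKPRAB36, an Ishikawa endometrial cancer cell line made to express both progesterone receptor isoforms, PRA and PRB. The family was defined by gene symbol, as every gene whose probe set carried 1 symbol of the form KRT followed by a number, without keratin-associated proteins and pseudogenes, and a gene with several probe sets was read from the one that was brightest on average over the 6 arrays. This gave 44 keratin genes of 19775 genes with a single-symbol probe set, 21 of them on chromosome 12 and 23 on chromosome 17. IKPRAB36 cells were cultured for 48 h with 1 nM MPA (medroxyprogesterone acetate, a synthetic progestin; 3 arrays) or without MPA (control; 3 arrays). All arrays came from this single transfected line, whose receptors are expressed from introduced constructs, and both groups were kept in medium with charcoal-stripped serum and the selection drugs hygromycin and neomycin. No source used here states that the 3 arrays of a group came from separate cultures, so the p-values reflect no more than how these arrays scatter, possibly for technical reasons, and the small number of arrays limits the precision.

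A keratin filament is built from pairs of 1 type I and 1 type II keratin, so epithelial cells express members of both types together. Glandular epithelia such as the endometrium are known for the simple keratins KRT7, KRT8, KRT18 and KRT19, whereas stratified epithelia express basal keratins next to the basement membrane and other pairs in their upper layers. Hair, nail and the inner root sheath of the hair follicle have keratins of their own.

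Of 55 protein-coding keratin genes in the RefSeq table, 44 were measured, with 24 type I and 20 type II genes. The other 11, which included KRT17, KRT6A, KRT6B and KRT6C, had no single-symbol probe set in the annotation used and were not analysed here. Median signal of an array was 5.19, 5.16 and 5.28 on MPA arrays 1 to 3, and 5.20, 5.18 and 5.19 on control arrays 1 to 3 (log2). A probe set above this median was called above the array median, which ranks no gene against another because brightness also depends on the probes. FKBP5, an immunophilin gene that progestins are known to induce, had 13.43, 13.34 and 13.32 on the MPA arrays and 9.76, 9.82 and 9.84 on the control arrays, a log2 difference of 3.56 (adjusted p = 2.325e-06, limma). The arrays labelled MPA therefore differed from the control arrays in a known progestin target. Of the 5 genes listed as markers of this line, all had signal above the array medians, including EPCAM and CDH1, which encode epithelial adhesion proteins, PAX8, a transcription factor of the Müllerian epithelium, and PGR, the progesterone receptor gene itself. ESR1, the estrogen receptor gene, lay closer to the medians, with means of 5.74 with MPA and 5.79 without. It passed the upper quartile on no array. PGR had 10.47, 10.56 and 11.08 with MPA and 10.26, 10.24 and 10.17 without (log2 difference 0.48, adjusted p = 0.294).

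In IKPRAB36 cells, few of the measured keratins had signal above the array median on every array. This median is a reference point and no limit of detection. On all 6 arrays, 8 of the 44 keratins (18.2%) lay above the array median, against 12302 of 19775 genes (62.2%). These were KRT7, KRT8, KRT18 and KRT19 of the simple epithelial class, the basal keratin KRT5, and KRT9, KRT10 and KRT80, which are known from differentiated layers of stratified epithelia. Reading the brightest probe set favours genes with several of them. The 19775 genes had 41091 such probe sets, whereas most keratins had only 1, so the shares are not fully alike. A further 6 passed the median on some arrays, namely KRT38 on 5, KRT73 and KRT78 on 4, KRT85 on 3, KRT72 on 2 and KRT33A on 1. The remaining 30 stayed below it on every array. When the upper quartile of each array was taken instead of the median, 6 keratins were left, namely KRT7, KRT8, KRT10, KRT18, KRT19 and KRT80. The same 6 lay above the median taken over the brightest probe set of each gene (6.41 to 6.51), so that the position of KRT5 and KRT9 depended on the reference chosen.

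**Figure D1:**
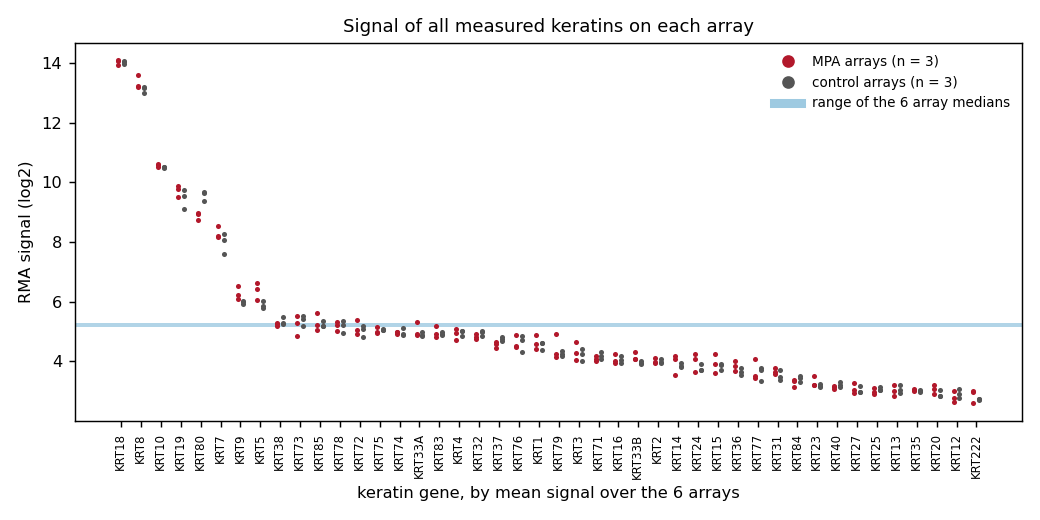
RMA signal (log2, y axis) of all 44 measured keratins, 1 per position along the x axis and sorted for display by mean signal, on the 3 MPA arrays (red) and the 3 control arrays (grey). The band is the range of the 6 array medians, 5.16 to 5.28; 8 keratins lie above it on every array and 30 below it on every array.

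By class, 4 of 5 simple epithelial keratins lay above the array median, with KRT20, a keratin of intestinal epithelium, as the exception (3.06 ± 0.15 with MPA and 2.91 ± 0.10 without; SD, n = 3 each). Of the 3 basal keratins only KRT5 did, while its type I partner KRT14 and the basal keratin KRT15 were below the median on every array. Of the 13 keratins of differentiated layers, KRT9, KRT10 and KRT80 lay above it, whereas the type II partner of KRT10, KRT1, was below it throughout. None of the 7 inner root sheath keratins, 12 hair and nail keratins and 3 other keratins was above the median on all 6 arrays. KRT16, the only stress keratin measured, had means of 4.07 in each group.

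Of the 44 keratins, none was called higher with MPA and 1, KRT80, was called lower, at a limma adjusted p under 0.05 and a log2 difference of at least 0.32 in size. Over all genes, 1.74% were called higher and 1.16% lower. A share of 1 in 44 is close to this background, so the data do not set the family apart from other genes. Before adjustment, 3 keratins had a p under 0.05, namely KRT80, KRT5 and KRT9, which is 6.82% of the family against 11.8% of all genes. The 95% interval of the log2 difference lay within a 2-fold change in either direction for all 44 keratins and within 1.5-fold for 38 of them, although for probe sets near background RMA values understate a change. Over all genes, the interval lay within 2-fold for 96% and within 1.5-fold for 15544 of 19775, so narrow intervals were no trait of keratins. The median log2 difference was 0.06 over the keratins and 0.02 over all genes. The log2 difference was positive for 29 keratins (65.9%) and for 55.3% of all genes as deposited. After a second quantile normalization these shares were 59.1% and 50.1%, and after scaling to housekeeping genes, which lowered every log2 difference by the same amount, 43.2% and 37.3%. The keratin median lay 0.03 above that of all genes as deposited and after housekeeping scaling, and 0.04 above it after the second quantile normalization. In these bulk measurements, a change in the number of cells of a type cannot be told apart from a change in RNA per cell.

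**Figure D2:**
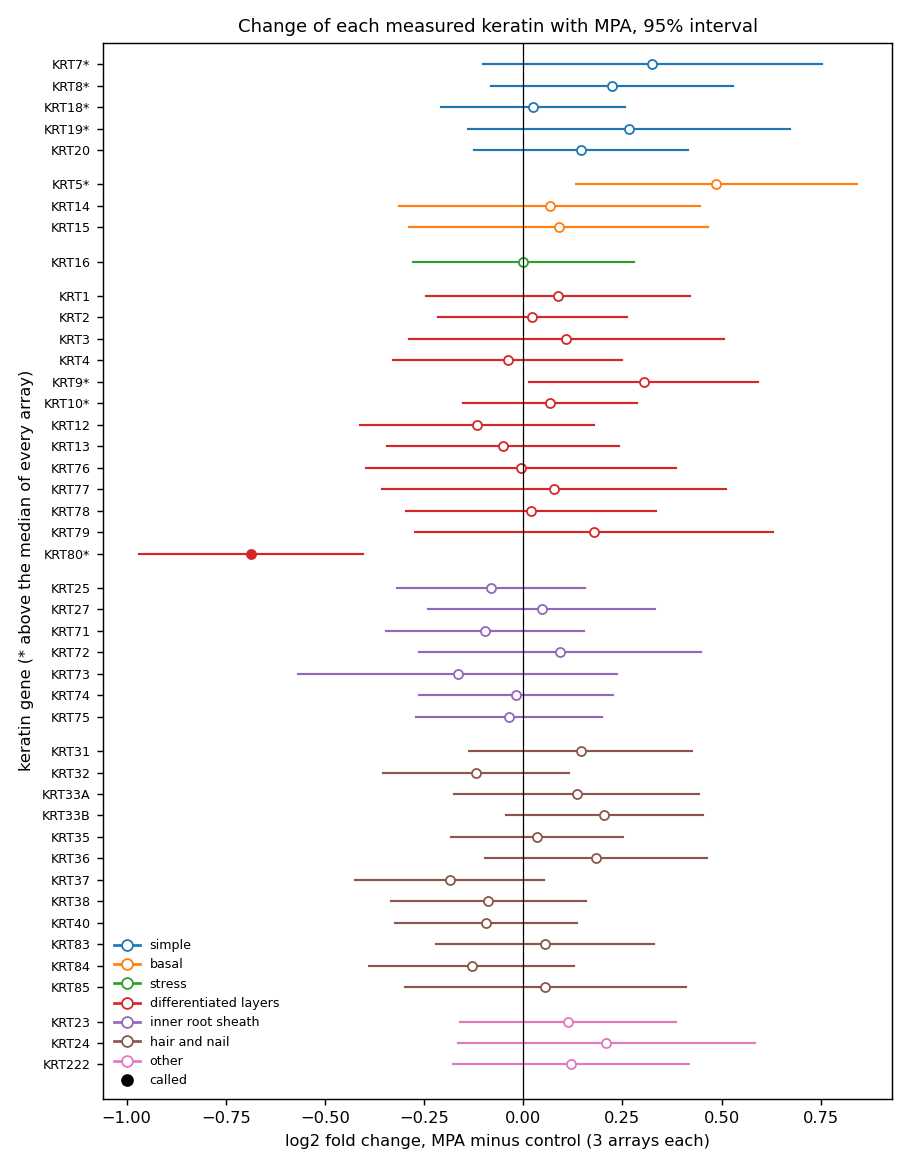
Log2 difference of each of the 44 keratins between MPA and control arrays (x axis; point, with the 95% interval from limma as a line), grouped by class in colour, with keratins above the median of every array marked by an asterisk. The filled point is KRT80 at -0.69, the only keratin called; all 44 intervals lie between -1 and 1.

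KRT80, a type II keratin found near desmosomes in differentiating epithelia, had 8.75, 8.93 and 8.96 on the MPA arrays and 9.69, 9.38 and 9.64 on the control arrays. All 3 MPA arrays lay below all 3 control arrays. Its log2 difference was -0.69 with a standard error of 0.12, so that KRT80 signal fell to 0.62 times that of control cells (95% interval 0.51 to 0.76, adjusted p = 0.0283). The call is close to its threshold. It was lost without control array 1 (adjusted p = 0.141), control array 3 (0.169), MPA array 1 (0.150) or MPA array 2 (0.0766), and kept without control array 2 (0.0195) or MPA array 3 (0.0440), with log2 differences of -0.78 to -0.62 throughout. KRT80 had 1 probe set, so that no further probe set of the gene could be compared.

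On chromosome 12, KRT7 is the next protein-coding gene to KRT80 in the RefSeq table, with 3 non-coding entries between them. KRT7, a type II keratin of glandular and ductal epithelia, had 8.17, 8.22 and 8.55 with MPA and 8.28, 7.60 and 8.08 without MPA. The groups overlapped, with control array 2 as the lowest and MPA array 3 as the highest of the 6. Its log2 difference was 0.33 (95% interval -0.10 to 0.75, adjusted p = 0.661), opposite in sign to that of KRT80. The other 3 KRT7 probe sets had log2 differences of 0.10, -0.02 and -0.06, and none was called.

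KRT8 and KRT18 encode the obligate pair of simple epithelia and lie side by side on chromosome 12. KRT8, the type II partner, had 13.25, 13.20 and 13.60 on the MPA arrays and 13.18, 13.00 and 13.19 on the control arrays. The MPA arrays were all above the control arrays, but MPA arrays 1 and 2 by small margins only, and the log2 difference of 0.22 (95% interval -0.08 to 0.53) was not called (adjusted p = 0.682). KRT18, the type I partner, had 14.09, 13.95 and 14.11 with MPA and 14.07, 13.98 and 14.03 without. The groups overlapped, and the log2 difference of 0.02 (95% interval -0.21 to 0.26, adjusted p = 0.979) changed sign to -0.05 with scaling to housekeeping genes. Both genes were read by probe sets that can also bind related transcripts, and the RefSeq table lists 52 pseudogenes of KRT8 and 68 of KRT18; their part in these signals was not tested.

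KRT19, the type I keratin of simple epithelia that lacks a tail domain, had 9.79, 9.50 and 9.89 with MPA and 9.74, 9.11 and 9.54 in control cells. The values overlapped, and as for KRT7 the lowest was control array 2 and the highest MPA array 3. The log2 difference was 0.27 (95% interval -0.14 to 0.67, adjusted p = 0.737). A second KRT19 probe set, below the array median, gave 0.08. For all 5 simple epithelial keratins together, 0 were called, and the log2 differences ranged from 0.02 to 0.33.

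KRT5, the type II keratin of basal cells, had 6.43, 6.07 and 6.63 with MPA and 6.03, 5.78 and 5.87 without MPA. The MPA arrays lay above the control arrays, although MPA array 2 and control array 1 differed by little. The log2 difference of 0.49 (95% interval 0.13 to 0.84) had an unadjusted p of 0.0129 from limma and an adjusted p of 0.254. KRT9, a type I keratin of palm and sole epidermis, had 6.24, 6.11 and 6.52 with MPA and 6.03, 5.99 and 5.93 without. Again the groups did not overlap, with a log2 difference of 0.30 (95% interval 0.01 to 0.59) and an adjusted p of 0.450. Without MPA array 3, the log2 difference was 0.36 for KRT5 and 0.19 for KRT9.

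KRT10, the type I keratin of the suprabasal epidermis, had the smallest standard error of the 8 (0.0963). Its values were 10.51, 10.64 and 10.58 on the MPA arrays and 10.53, 10.49 and 10.51 on the control arrays. MPA array 1 lay within the control values and the log2 difference of 0.07 (95% interval -0.15 to 0.29, adjusted p = 0.921) turned to -0.003582 with scaling to housekeeping genes. Its other 2 probe sets gave 0.09 and 0.05.

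**Figure D3:**
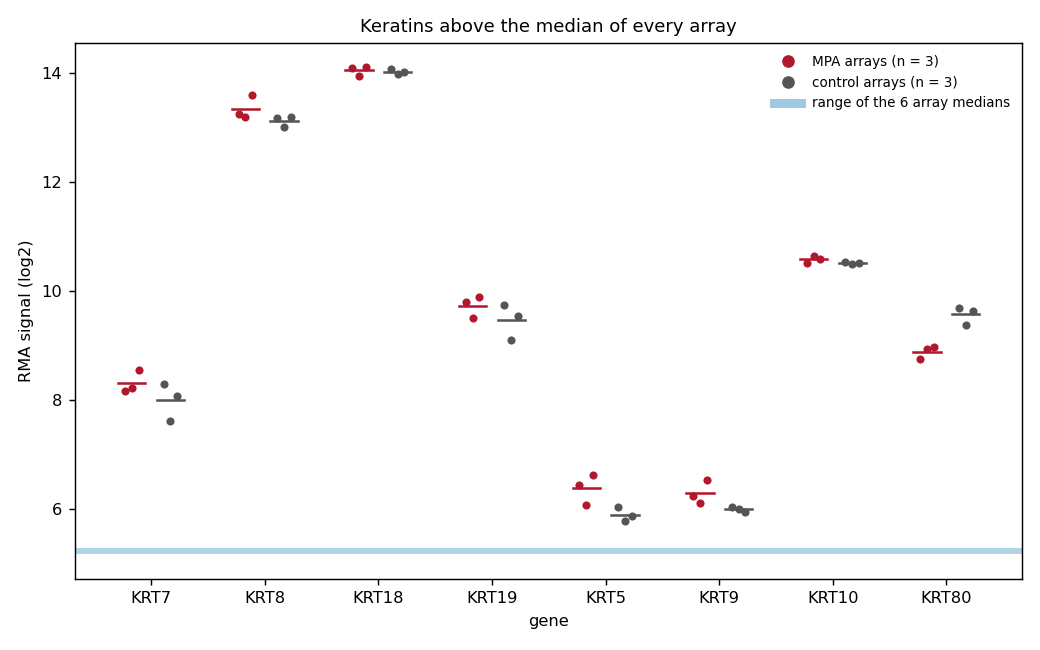
RMA signal (log2, y axis) of the 8 keratins above the median of every array (x axis), with the 3 MPA arrays (red) to the left of the 3 control arrays (grey); points run from array 1 to array 3, short lines are group means and the band is the range of the 6 array medians. KRT80 is the keratin whose MPA arrays, at 8.75 to 8.96, all lie below its control arrays, at 9.38 to 9.69.

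The start regions of KRT5, KRT9 and KRT10 are shown because these are the keratins above the array medians for which the reference table held the 250 bases ahead of the gene's annotated outer start. They differ in which of the exact words searched for they hold. Sequences are from RefSeq (GRCh38.p14), 5′ to 3′ on the strand of the gene, which is the minus strand for all 3: chr12:52520395-52520644 for KRT5, chr17:41572060-41572309 for KRT9 and chr17:40822615-40822864 for KRT10. Capitals mark exact matches to a TATA box (TATAAA, gene strand), a steroid receptor half-site (AGAACA or TGTTCT, both strands) or a GC box (GGGCGG or CCGCCC, both strands).
KRT5: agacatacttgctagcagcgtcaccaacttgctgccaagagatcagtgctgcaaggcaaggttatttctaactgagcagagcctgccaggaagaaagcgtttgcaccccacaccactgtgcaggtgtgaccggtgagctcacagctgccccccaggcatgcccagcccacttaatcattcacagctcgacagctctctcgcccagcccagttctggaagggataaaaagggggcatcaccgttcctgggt
KRT9: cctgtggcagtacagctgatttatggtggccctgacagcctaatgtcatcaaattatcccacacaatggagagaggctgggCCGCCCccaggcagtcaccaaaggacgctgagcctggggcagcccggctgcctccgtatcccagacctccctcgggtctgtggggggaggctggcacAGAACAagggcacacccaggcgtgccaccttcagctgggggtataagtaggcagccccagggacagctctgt
KRT10: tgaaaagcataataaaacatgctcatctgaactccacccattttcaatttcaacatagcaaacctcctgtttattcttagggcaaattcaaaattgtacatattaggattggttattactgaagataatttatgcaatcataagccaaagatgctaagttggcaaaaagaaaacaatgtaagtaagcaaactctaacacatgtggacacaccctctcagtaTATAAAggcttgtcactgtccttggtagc
KRT10 holds TATAAA 29 bases ahead of the start, KRT9 holds CCGCCC at 169 and AGAACA at 72 bases ahead of it, and KRT5 holds none of these words in this window. Of the 29 measured keratins with an entry in the table, 15 held TATAAA (51.7%), against 8.38% of 27305 genes. In 14 of the 15 the word began 20 to 40 bases ahead of the start, a position where 2.92% of all genes have it. Among the 29, 4 lay above the median on all arrays, namely the 3 shown and KRT8, whose entry is not at its outer start. Of these 4, 1 held TATAAA (25%), against 14 of the other 25 (56%). AGAACA or TGTTCT was present in 3 keratins (KRT9, KRT25 and KRT74) and in 14.8% of all genes, and GGGCGG or CCGCCC in 4 keratins (KRT9, KRT37, KRT38 and KRT75) and in 46.2% of all genes. These matches describe the letters only, and neighbouring keratin genes are related by descent. Near matches to TATAAA, such as gataaa in KRT5 and tataag in KRT9, were not counted, so the absence of a word does not show that a core element is missing.

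Among the 36 keratins not above the median on all arrays, 0 were called and log2 differences ranged from -0.19 to 0.21. The largest positive value was that of KRT24, a type I keratin (4.08, 3.64 and 4.26 with MPA; 3.71, 3.92 and 3.72 without; log2 difference 0.21, adjusted p = 0.797). The hair keratin KRT33B had 4.08, 4.09 and 4.31 with MPA and 4.01, 3.95 and 3.90 without, with no overlap (0.20, adjusted p = 0.620). In the hair keratin KRT37, in contrast, the MPA arrays (4.67, 4.46 and 4.58) all lay below the control arrays (4.69, 4.75 and 4.82), with a log2 difference of -0.19 (adjusted p = 0.653). The other 3 of the 6 with the largest differences, KRT36 (0.18) of hair, KRT79 (0.18) and the inner root sheath keratin KRT73 (-0.17), had overlapping groups and adjusted p of 0.735 to 0.883. KRT79 turned to -0.07 without MPA array 3 and KRT73 to 0.02 without MPA array 2. All of these signals lay around or below the array medians.

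Over the family, 4 keratins had all MPA arrays above all control arrays (KRT5, KRT8, KRT9 and KRT33B), and 2 had them all below (KRT37 and KRT80). Over all genes these shares were 8.96% and 7.98%, against which 4 and 2 of 44 are no excess. An exact permutation test of 3 against 3 arrays cannot give a two-sided p below 0.1. MPA array 3 gave the highest value of the 6 for 27 of the 44 keratins (61.4%), against 39.6% of all genes, and MPA array 2 the lowest for 18 (40.9%), against 25.1%. Both arrays belong to the MPA group. The 24 labelling control probe sets averaged 6.60 on MPA array 3, 8.85 and 8.09 on MPA arrays 1 and 2, and 8.19 to 8.90 on the control arrays; their part in the keratin values was not tested.

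Keratin filaments end at desmosomes and hemidesmosomes and are bound by plakins and adaptor proteins. Of 18 desmosome and hemidesmosome genes measured, 1 was called higher and 0 lower, against 1.74% and 1.16% of all genes. The called gene was PKP2, which encodes the desmosomal plaque protein plakophilin-2. PKP2 had 7.35, 7.45 and 6.90 on the MPA arrays and 6.03, 6.53 and 6.37 on the control arrays. All MPA arrays lay above the controls, with a log2 difference of 0.92 (95% interval 0.51 to 1.33, adjusted p = 0.0417), but the call was lost with scaling to housekeeping genes (adjusted p = 0.0813). DSP, the desmoplakin gene that ties keratins to the desmosome, had 10.74, 10.73 and 10.85 with MPA and 10.87, 10.96 and 11.05 without. All MPA arrays of DSP lay below its control arrays, with a log2 difference of -0.19 that was not called (adjusted p = 0.643). JUP, the gene of plakoglobin, gave -0.26 (adjusted p = 0.744), with overlapping groups. Of all 18 genes, 9 had positive and 9 negative log2 differences. In 3 of them all MPA arrays lay above all control arrays and in 1 all lay below, against 8.96% and 7.98% of all genes.

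Of 18 genes for proteins that bind or modify keratins, 0 were called higher and 2 lower, against the 1.74% and 1.16% of all genes given above. In 6 of the 18 all MPA arrays lay above all control arrays, and in 4 all lay below, against 8.96% and 7.98% of all genes. This list was put together with results of these data known, so these counts are no independent evidence about it. PPL encodes periplakin, a plakin that binds keratin filaments, and had 9.03, 8.78 and 9.16 with MPA and 9.93, 9.73 and 9.89 without. SFN encodes 14-3-3 sigma, an epithelial adaptor that binds keratins, and had 11.56, 11.30 and 11.46 with MPA and 12.40, 12.09 and 12.09 in control cells. In both genes all MPA arrays were below all control arrays, with log2 differences of -0.86 for PPL (adjusted p = 0.0110) and -0.75 for SFN (adjusted p = 0.0217). HSPB1, a small heat shock protein that binds intermediate filaments, had 12.52, 12.59 and 12.77 with MPA and 12.17, 12.07 and 12.14 without. Its MPA arrays all lay above the control arrays, with a log2 difference of 0.50 (adjusted p = 0.0656) that was not called here but was called higher in 4 alternative settings. ELF3, an epithelial transcription factor of the ETS family, had 8.68, 8.76 and 8.89 with MPA and 9.73, 9.42 and 9.62 without (-0.81, adjusted p = 0.0106). It was the 1 called member of 16 epithelial transcription factors, against 1.16% of all genes called lower.

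These calls too rested on few arrays. When each array was left out in turn, PPL and ELF3 were kept in 3 of 6 fits, and PKP2 and SFN in 2 of 6. None of 15 other intermediate filament genes was called, among them VIM, the vimentin gene. VIM had 12.70, 12.70 and 12.91 on the MPA arrays and 13.00, 12.96 and 13.04 on the control arrays (log2 difference -0.23, adjusted p = 0.532). All MPA arrays of VIM lay below its control arrays, as in 7.98% of all genes. None of 10 cornified envelope genes, which act with keratins in the outer epidermis, was called, with log2 differences of -0.47 to 0.25. Over all genes 1.74% were called higher and 1.16% lower, against which 0 or 1 called member sets no list of this size apart. The lists were put together with results of these data known and give no independent evidence of a direction.

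**Figure D4:**
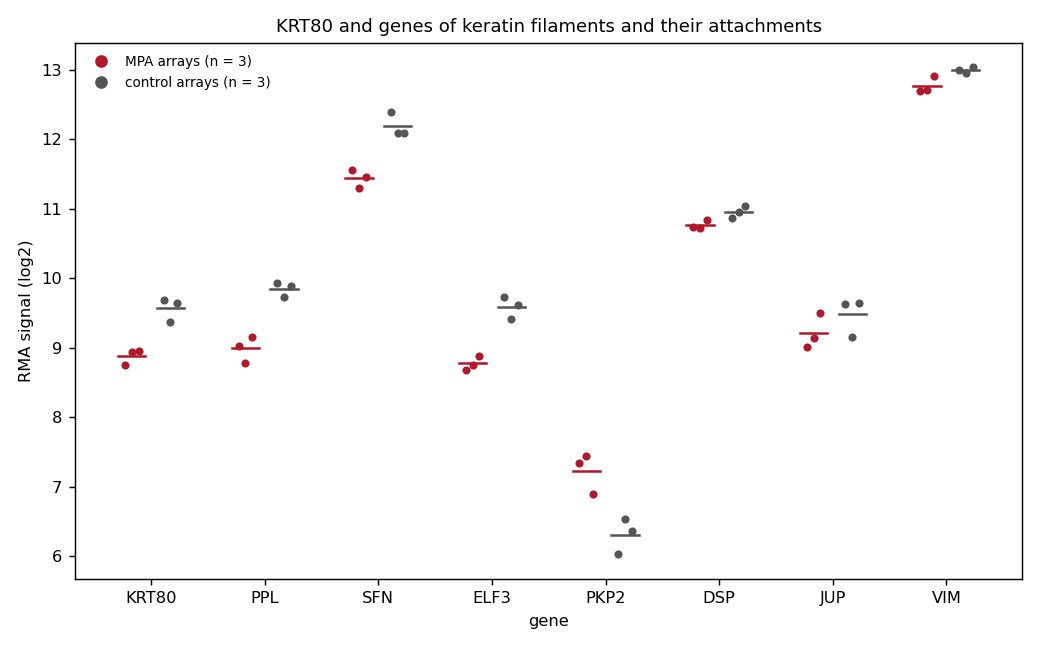
RMA signal (log2, y axis) of KRT80, of genes for keratin-binding, desmosomal and other intermediate filament proteins, and of the transcription factor gene ELF3 (x axis). The 3 MPA arrays (red) are to the left of the 3 control arrays (grey). Points run from array 1 to array 3 and short lines are group means. KRT80, PPL, SFN, ELF3, DSP and VIM are lower and PKP2 higher on every MPA array than on every control array, while the JUP values overlap. DSP and VIM were not called. Over all genes, 7.98% were lower and 8.96% higher on every MPA array than on every control array.

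Markers of the line and of other cell types were set beside the KRT80 value. EPCAM had a log2 difference of -0.54 (adjusted p = 0.0586, limma), CDH1 of -0.76 (adjusted p = 0.128) and PAX8 of -0.44 (adjusted p = 0.0762). None of these passed the threshold. Of the 5 line markers, these 3 had all MPA arrays below all control arrays, and 1, PGR, had them all above. Over all genes these shares were 7.98% and 8.96%. Of 11 markers of stromal, endothelial and blood cells, 0 were called. Below the median on every array lay 6, among them PTPRC, the common leukocyte gene, and LUM, of fibroblasts. The other 5 (45.5%, against 62.2% of all genes) lay above it on every array, namely COL1A1, PECAM1, RGS5, CD3E and DCN. The summed linear signal of all 11 was 550.4 to 640.7 on the MPA arrays and 674.4 to 955.3 on the control arrays. Such a sum is weighted towards its brightest member, here COL1A1. The mean log2 signal of the 11 overlapped, at 4.822 to 5.081 on the MPA arrays and 4.975 to 5.087 on the control arrays. Their median log2 difference was -0.03. COL1A1, a collagen gene, had 8.17 ± 0.13 with MPA and 8.97 ± 0.49 without (log2, SD, n = 3 each). RMA gives no value of 0, and the part of these markers in the KRT80 value was not tested.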

How the data were processed

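Total RNA of IKPRAB36 cells was hybridised to Affymetrix U133 Plus 2 arrays. The deposited values are log2 signals that the authors made with RMA (background correction, quantile normalization and probe set summary), so that no scanner intensities entered this work. All 54613 probe sets, without 62 array controls, were fitted with limma 3.58.1 in R 4.3.3 (lmFit and eBayes, group as the only term), with Benjamini-Hochberg adjustment over all of them, and genes were called at a 1.25-fold or larger change with adjusted p under 0.05. Genes were named from the platform annotation: 41091 probe sets had 1 symbol, 1801 had several and 11721 had none, and the last 2 kinds were not assigned to genes. Values per array were printed for keratins above all array medians and for called keratins; of the rest the 6 with the largest absolute difference were named, and of other lists the called members plus DSP, JUP, VIM, PGR and FKBP5. The members and lists were chosen with earlier results of these data known. CDH1, EPCAM, PAX8, ESR1, COL1A1, PECAM1, RGS5, CD3E, DCN, PTPRC, LUM, HSPB1 and FAM83D were named after their values were seen. The fit was tested on simulated data. Alternatives were treat, SAM with a delta of 0.53, an intensity trend, other fold minimums, normalizations, filters and probe set rules, the replicate number as a block, and leaving out each array.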

Additional observations from a re-analysis of the deposited data

How the results depend on the processing

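No alternative called a keratin higher. KRT80 was the 1 keratin called lower in 8 of the 10 other settings that used all arrays, SAM included, and none was called with a 2-fold minimum (0) or the treat test (0). Leaving out each array in turn gave 0 to 1. Of the other lists, 4 genes were called, against 0 with a 2-fold minimum, 0 with treat, 5 with the replicate block, the intensity trend or averaged probe sets, 6 with SAM, and 0 to 5 without each array. HSPB1 was called higher in those 4 settings, and FAM83D, a keratin-binding protein gene, lower with SAM and with housekeeping scaling. Over all probe sets 1107 were called, with 5606 at an unadjusted p under 0.05, against 510 with a 2-fold minimum, 455 with treat, 571 when the probe sets of each gene were averaged, 2181 with SAM, and 518 to 1190 without each array. Calls were 663 higher and 444 lower, but 554 higher and 603 lower after scaling to 12 housekeeping genes. This scaling moved the median log2 difference over all probe sets from 0.01 to -0.06. The 12 genes were not flat before scaling: 7 had positive and 5 negative log2 differences, from -0.16 to 0.38. None of them was called, and 2 had an unadjusted p under 0.05 (limma). The cause was not tested.

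Among all 44 keratins, 10 changed sign with housekeeping scaling and 3 with the second quantile normalization. Of the 14 keratins named by the rule, those that changed sign were KRT10 (-0.003582 with housekeeping scaling), KRT18 (-0.001759 after a second quantile normalization, -0.04642 with housekeeping scaling, and -0.007225 to 0.07588 without each array), KRT79 (-0.06776 to 0.3245) and KRT73 (-0.3143 to 0.01505). The number of keratins above all array medians was 6 to 11 across alternatives. Array numbers in the labels are shared by both groups, but the labels do not say that they pair the arrays, and the main fit had no block. In their deviations from the group means, same-numbered arrays correlated at -0.02, 0.52 and 0.33. Arrays with different numbers correlated at -0.48 to 0.35. These values do not settle whether the arrays were paired. With the number as a replicate block, 2033 probe sets were called, 1 keratin lower (KRT80, adjusted p = 0.0117) and 0 keratins higher, and the log2 differences were those of the fit without the block.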
